A study of Mus musculus with 8 samples.

Results

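The 53 genes described here make, use and recycle glutathione, remove peroxides and superoxide, supply NADPH, or belong to the NRF2 pathway of mouse cells. They were taken by name: a gene counts when the RefSeq accession of a probe on the array maps to its symbol. All 53 had at least 1 probe (75 probes in 102 spots), out of 20660 genes named on the array. Of these, 50 were well above background on at least 2 of the 8 arrays and were tested among 14035 genes. Gstk1, Gstt2 and Gpx3 were not well above background on any array and were not tested.

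RNA came from BMEL, a line of bipotential liver progenitors derived from the embryonic mouse, kept in a medium labelled DIFF (n = 2 arrays), CM (n = 3) or NoRX (n = 3). The series title asks how such progenitors respond when the medium was first conditioned by human amniotic epithelium. The labels name no treatment, agent or genotype beyond the medium and spell out none of the medium names, and the composition of the media and the time in them are not given in the sources used here. All groups share the 1 cell line, and nothing says that arrays of 1 group came from separate cultures, so each p-value reflects the spread among arrays, which may be technical.

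DIFF replicate 2 had 46.4% of its spots well above background and 1159 spots in uneven local background, whereas the other 7 arrays had 50.8% to 53.5% and 3 to 90 such spots. Between arrays of a group, the members had a median SD of 0.195 (log2) in DIFF, 0.058 in CM and 0.050 in NoRX. The fit uses 1 spread for all 3 groups, so DIFF comparisons carry p-values smaller than the spread of the DIFF arrays alone would give, and array weights lowered the genes called between DIFF and NoRX to 2988 of 14035, against 5908 without them. Slide row was read here from a number in each array's barcode, and that this number is the row is an assumption. By it, row 1 of the slide held the NoRX arrays with CM replicate 1, and row 2 held CM replicates 2 and 3 with both DIFF arrays. Of 11 markers of liver progenitors and epithelia, 10 were well above background on all arrays, the exception being Spp1 on 7. These 11 summed to log2 levels of 10.10 to 10.44 in DIFF, 10.28 to 10.39 in CM and 10.67 to 10.76 in NoRX. Single markers moved both ways: mean Epcam was -2.60 in DIFF, 0.47 in CM and -0.76 in NoRX. Mean Krt7 was 4.73 in DIFF, 2.07 in CM and 3.06 in NoRX. Markers of other cell types were mixed: Des of 8 stellate cell and fibroblast markers, Csf1r, Cd14 and Itgam of 7 macrophage and leukocyte markers, Pecam1 and Kdr of 7 endothelial markers and Hba-a1 of 5 erythroid markers were well above background on all 8 arrays. From the same lists, Lum, Pdgfrb, Lrat and Rgs5, Adgre1 and Lyz2, Tek and Emcn, and Hbb-bt, Alas2 and Klf1 were so on none. Lyve1 was far higher in DIFF, at -1.22 and -1.24, than the -7.57 to -7.13 of CM and the -5.30 to -4.56 of NoRX. The 7 macrophage and leukocyte markers with a probe summed to log2 levels of 3.43 to 3.72 in DIFF, 4.43 to 4.49 in CM and 4.10 to 4.22 in NoRX. The 8 stellate cell and fibroblast markers summed to -2.07 to -1.65 in DIFF, 0.34 to 0.65 in CM and -0.83 to -0.81 in NoRX. This list did not move together. Des had means of -2.52 in DIFF, 0.02 in CM and -1.92 in NoRX, whereas Col1a1 was lower in CM (-3.09) than in NoRX (-2.42). Dcn read -1.53 on CM replicate 1 and -4.27 on CM replicates 2 and 3. The endothelial markers summed to 3.05 to 3.29 in DIFF, 3.40 to 3.52 in CM and 3.34 to 3.61 in NoRX, and the erythroid markers to -0.50 to -0.38 in DIFF, -1.99 to -1.06 in CM and -1.83 to -1.03 in NoRX. The part of these lists in the results was not tested.

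Glutathione is a small thiol peptide made from glutamate, cysteine and glycine, and cells use it to reduce peroxides and, through glutathione transferases, to tag reactive chemicals for export. NADPH keeps both glutathione and thioredoxin in their reduced forms. NRF2, encoded by Nfe2l2, is a transcription factor that KEAP1 holds at low levels by steering it to degradation; on oxidative or electrophilic stress it escapes and binds antioxidant response elements near many of these genes, and in liver these enzymes carry much of the clearance of drugs and toxins.

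Values below are log2 processed intensities of 1 probe minus the 75th percentile of that array, so that 0 is the 75th percentile of all spots and a difference of 1 is a 2-fold change. Levels of different genes come from different probes and are not compared. Errors of differences are SEs from limma, and adjusted p-values are two-sided limma values adjusted by the Benjamini-Hochberg method over all 14035 genes, with 0.05 as the threshold.

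Most of these genes were higher in CM than in NoRX. Against NoRX, 35 of the 50 tested members were higher, 4 were lower and 11 did not pass, whereas 52.2% of all genes tested changed, 26.9% higher and 25.3% lower. The 2-fold mark was passed upward by 20 members and downward by 0, against 6.21% and 5.19% of all genes. The median difference of the members was 0.64, against 0.01 for all genes. That of the members was 0.52 with the NoRX signals of Nqo1 and Gstm6 raised, where lower, to the array's dimmest signal well above background. In bulk RNA of this kind, more cells that express a gene and more RNA per cell cannot be told apart. By role, the median difference was 1.84 for the quinone, carbonyl and haem enzymes, 1.31 for glutathione synthesis and recycling, 0.96 for the transferases, 0.32 for NADPH supply, 0.21 for peroxide and superoxide removal and 0.09 for NRF2 and its regulators. With slide row as a block the members called were 29 higher and 3 lower. Within row 1, where replicate 1 was the only CM array, the median difference was 0.64 for the members and 0.02 for all genes.

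DIFF divided the set. Against NoRX, 16 members were higher, 20 lower and 14 did not pass, beside 42.1% of all genes changed, 14% higher and 28.1% lower. The 2-fold mark was passed by 11 members upward and 3 downward, against 4.58% and 7.87% of all genes. Those upward include Slc7a11, whose 2.49 fell to 0.33 with a spot in uneven background on DIFF replicate 2 left out. Those downward include Nqo1, which was not well above background on any DIFF or NoRX array. The median difference was -0.01 for the members and -0.10 for all genes. Centring each array on its median instead moved the median of all genes to 0.05 and the calls to 18 members higher and 12 lower, and to 2400 genes higher and 2133 lower against 1961 and 3947 before. Leaving out DIFF replicate 2 gave 21 members higher and 20 lower, and array weights gave 14 and 14. With slide row as a block they were 12 and 8. All NoRX arrays lay in row 1 and both DIFF arrays in row 2, so row and medium cannot be told apart between them. The block takes the row effect from the CM arrays alone, the only group with arrays in both rows.

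Set against CM, DIFF held lower signal of most members: 9 were higher, 32 lower and 9 did not pass, beside 59.2% of all genes changed, 23.6% higher and 35.6% lower. The 2-fold mark was passed by 3 members upward and 16 downward, against 7.99% and 12.3% of all genes. The median difference was -0.54 for the members and -0.11 for all genes. With median centring 10 members were higher and 25 lower, and all genes split 3936 to 3184 against 3315 to 4990. Within row 2 of the slide the calls were 9 and 26. The comparisons share their arrays pairwise, so their results are not independent of each other.

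**Figure D1:**
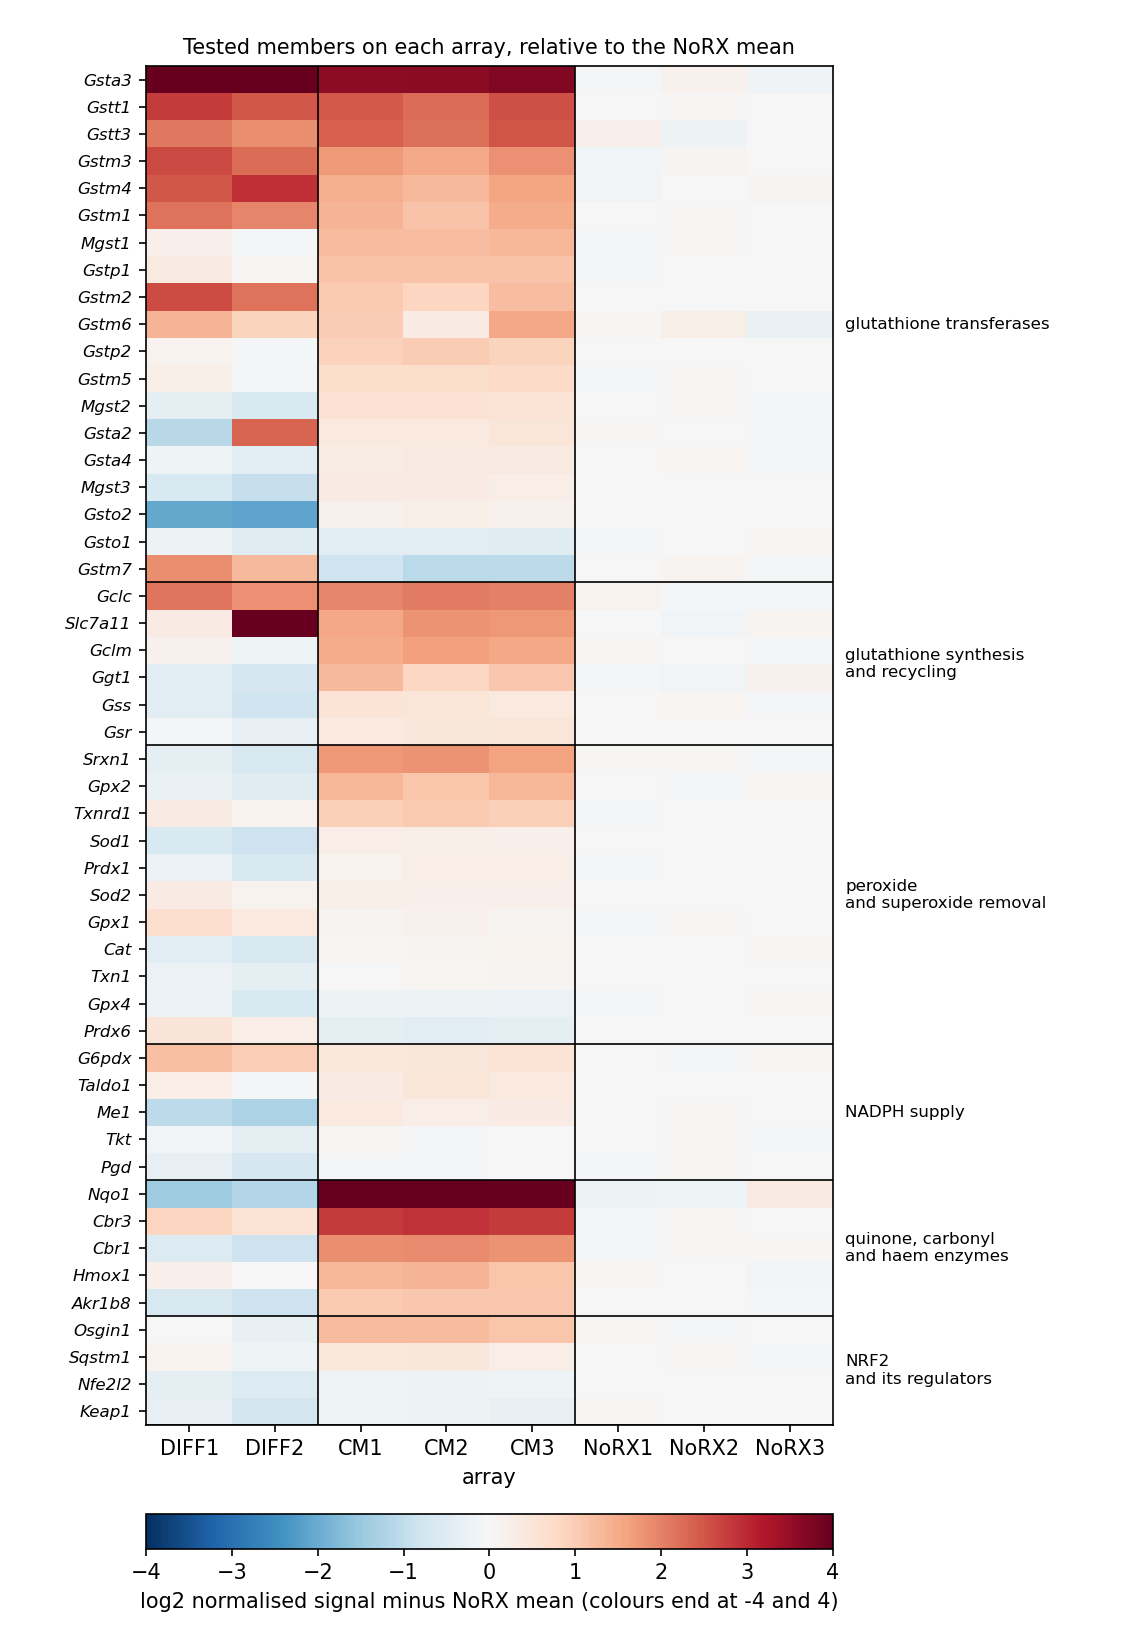
Each tested member (rows, grouped by role) on each array (columns), as log2 normalised signal minus the mean of the NoRX arrays; red is higher and blue lower, with colours ending at -4 and 4. The CM columns are red for most members, with Nqo1, Gsta3 and Cbr3 deepest, while the DIFF columns are red for Gsta3, Gstm1 to Gstm4, Gstt1, Gstt3 and Gclc and pale or blue for most others.

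Promoter windows of RefSeq (GRCm38.p6, 250 bases before to 50 after a gene's start) were searched on both strands for TGACNNNGC, the core letters of the antioxidant response element. A window was given for 47 members and not used here for Gsta4, Gstt2, Gclc, Gsr, Hmox1 and Prdx6. The letters occurred in 14 of the 47 (29.8%), against 14% of 27025 genes and 12.4% of all 32851 windows. Of the members higher in CM by 2-fold or more 5 of 18 held them (27.8%), of those higher by less 5 of 13 (38.5%), and of the others 4 of 16 (25%). The differences between these shares were not tested. A match is a description of the letters, not of binding.

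6 of these runs, each 49 bases long with the match in capitals, show how the core differs between members of the roles described below. The run of Gsta3 is chr1:21240444-21240492 on the plus strand, that of Mgst1 chr6:138140451-138140499 on the minus strand and that of Gclm chr3:122245403-122245451 on the minus strand. The run of Txnrd1 is chr10:82859094-82859142 on the minus strand, that of Prdx1 chr4:116685446-116685494 on the minus strand and that of G6pdx chrX:74428909-74428957 on the plus strand.
Gsta3: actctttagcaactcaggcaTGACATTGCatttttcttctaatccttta
Mgst1: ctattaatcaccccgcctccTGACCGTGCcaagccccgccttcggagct
Gclm: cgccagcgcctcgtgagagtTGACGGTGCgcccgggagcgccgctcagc
Txnrd1: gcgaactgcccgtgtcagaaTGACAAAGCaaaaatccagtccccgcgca
Prdx1: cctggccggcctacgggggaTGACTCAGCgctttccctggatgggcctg
G6pdx: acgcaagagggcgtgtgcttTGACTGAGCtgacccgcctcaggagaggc
The match starts 121 bases before the start of Gsta3, 56 before that of Mgst1, 134 before that of Gclm, 92 before that of Txnrd1, 133 before that of Prdx1 and 57 before that of G6pdx. The window of Nqo1, a classical NRF2 target, held none of these letters, which says nothing of sites elsewhere.

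Glutathione transferases join glutathione to electrophiles, and 19 of the 21 listed were tested. Against NoRX, 15 were higher and 2 lower in CM, and 8 were higher and 5 lower in DIFF. Between DIFF and CM, 6 were higher (31.6%) and 8 lower (42.1%) in DIFF, beside 23.6% and 35.6% of all genes, with a median difference of 0.10. By class, the mu members Gstm1 to Gstm4 and Gstm7 were higher in DIFF than in CM (Gstm3 and Gstm4 each by 1 of their 2 kept probes), and the pi members and all 3 microsomal members were lower.

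Gsta3, an alpha class transferase, had the largest rise among the members above background on every array. It stood at 5.75 and 5.42 in DIFF, 4.65, 4.66 and 4.77 in CM and 1.02, 1.23 and 0.93 in NoRX. The 3 groups did not overlap and NoRX was lowest. Its signal was 23.0-fold higher in DIFF than in NoRX (log2 difference 4.52 ± 0.11, adjusted p = 2.06e-10), 12.4-fold higher in CM than in NoRX (3.63 ± 0.10, adjusted p = 2.33e-09) and 1.85-fold higher in DIFF than in CM (0.89 ± 0.11, adjusted p = 4.3e-05). Gsta4, which takes lipid peroxidation aldehydes as substrates, moved by less: it was 1.24-fold lower in DIFF than in NoRX (adjusted p = 0.0156, lost under 6 of the alternative settings) and 1.26-fold higher in CM than in NoRX (adjusted p = 0.00457, lost with slide row as a block).

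The other alpha class member tested, Gsta2, read 4.84 and 8.26 in DIFF, 6.35, 6.34 and 6.42 in CM and 5.99, 5.95 and 5.90 in NoRX. The DIFF arrays lay on either side of all others, and no comparison passed. Its spot on DIFF replicate 2 lay in uneven local background. With that spot left out, Gsta2 was lower in DIFF than in NoRX (-1.10, adjusted p = 1.96e-07) and than in CM (-1.53, adjusted p = 2.36e-09), and higher in CM than in NoRX (0.42, adjusted p = 0.000106), with DIFF resting on 1 array.

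The mu class genes lie side by side on chromosome 3 in the order Gstm5, Gstm7, Gstm6, Gstm3, Gstm2, Gstm1 and Gstm4, and are close in sequence, so a probe can take signal from a neighbour. Gstm1 had 5.60 and 5.40 in DIFF, 4.81, 4.58 and 4.93 in CM and 3.42, 3.48 and 3.42 in NoRX. Gstm2 had 4.37 and 3.94 in DIFF, 2.81, 2.63 and 3.00 in CM and 1.78, 1.76 and 1.75 in NoRX. In both genes the groups did not overlap and ran from DIFF at the top to NoRX at the bottom. Gstm1 was 4.17-fold higher in DIFF than in NoRX (2.06 ± 0.10, adjusted p = 3.79e-08), 2.52-fold higher in CM than in NoRX (1.34 ± 0.09, adjusted p = 7.01e-07) and 1.65-fold higher in DIFF than in CM (adjusted p = 0.000106). Gstm2 was 5.25-fold higher in DIFF than in NoRX (2.39 ± 0.13, adjusted p = 7.22e-08), 2.07-fold higher in CM than in NoRX (1.05 ± 0.12, adjusted p = 2.31e-05) and 2.53-fold higher in DIFF than in CM (1.34 ± 0.13, adjusted p = 4.84e-06). All 3 kept probes of Gstm2 gave differences between DIFF and CM of 1.34 to 1.37, and the second probe of Gstm1 gave 0.94 where the first gave 0.72.

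Gstm3 read 2.37 and 1.94 in DIFF, 1.43, 1.25 and 1.54 in CM and -0.39, -0.18 and -0.26 in NoRX. It was 5.41-fold higher in DIFF than in NoRX (2.43 ± 0.13, adjusted p = 6.76e-08) and 3.21-fold higher in CM than in NoRX (1.68 ± 0.12, adjusted p = 7.34e-07; 2.53 with the mean of its probes). The order of DIFF and CM depended on the probe: the brighter one gave 0.75 ± 0.13 (adjusted p = 0.000466), the other -1.33, and their mean -0.29 (adjusted p = 0.0583). Gstm4 read 1.14 and 1.56 in DIFF, 0.11, -0.05 and 0.22 in CM and -1.46, -1.34 and -1.24 in NoRX, again with no overlap and DIFF highest. This probe was 6.49-fold higher in DIFF than in NoRX (2.70 ± 0.13, adjusted p = 3.25e-08) and 2.71-fold higher in CM than in NoRX (1.44 ± 0.12, adjusted p = 2.7e-06), and 2.39-fold higher in DIFF than in CM (1.26 ± 0.13, adjusted p = 1.01e-05). Its spot on DIFF replicate 2 lay in uneven background, and without it the differences from NoRX and CM were 2.49 and 1.05. The dimmer probe of Gstm4 gave 0.32 for DIFF against NoRX, 0.40 for CM against NoRX and -0.08 for DIFF against CM, and the mean of both probes gave 1.51, 0.92 and 0.59 in that order.

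Gstm7 ran against the others in CM. It read -1.46 and -2.05 in DIFF, -4.13, -4.40 and -4.39 in CM and -3.35, -3.23 and -3.41 in NoRX, so that DIFF was highest and CM lowest with no overlap. It was 2.98-fold higher in DIFF than in NoRX (1.58 ± 0.22, adjusted p = 0.000144), 1.97-fold lower in CM than in NoRX (-0.98 ± 0.20, adjusted p = 0.00151) and 5.86-fold higher in DIFF than in CM (2.55 ± 0.22, adjusted p = 1.72e-06). The second probe gave 1.59, -0.68 and 2.26 for the same comparisons, and normexp background correction lowered the difference between DIFF and CM to 1.65. Gstm5, at the end of the cluster, was 1.65-fold higher in CM than in NoRX (0.73 ± 0.08, adjusted p = 2.51e-05) and 1.54-fold lower in DIFF than in CM (adjusted p = 0.000129). Gstm6 read -4.24 and -4.72 in DIFF, -4.59, -5.28 and -4.08 in CM and -5.58, -5.38 and -5.87 in NoRX, and was well above background on 1 DIFF array, 2 CM arrays and 0 NoRX arrays. As fitted, its difference from NoRX was 1.13 in DIFF (adjusted p = 0.0533) and 0.96 in CM (adjusted p = 0.0551), neither past the threshold. Over the alternative settings this difference ranged over 0.63 to 1.73 in DIFF and 0.17 to 1.28 in CM. The call passed under 7 of the alternative settings for DIFF and under 8 for CM. A second kept probe of Gstm6 was well above background on 1 DIFF and 1 CM array and, within DIFF, had a value on replicate 1 only. It gave 3.24 for DIFF against NoRX, 0.59 for CM against NoRX and 2.65 for DIFF against CM. The mean of both probes gave 1.73 for DIFF against NoRX (adjusted p = 0.0153). Neither probe was well above background on any NoRX array, so Gstm6 passed the filter for testing through DIFF and CM arrays alone. Its differences from NoRX are of measured signals, and their p-values and passing settings are not independent of that filter.

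Both tested members of the theta class were higher in DIFF and in CM than in NoRX. Gstt1 read -0.69 and -0.99 in DIFF, -1.03, -1.23 and -0.90 in CM and -3.48, -3.44 and -3.50 in NoRX. Gstt3 read -2.0 and -2.25 in DIFF, -1.74, -1.90 and -1.62 in CM and -3.91, -4.33 and -4.12 in NoRX. For both genes every DIFF and CM array lay above every NoRX array. Gstt1 was 6.20-fold higher in DIFF than in NoRX (2.63 ± 0.14, adjusted p = 6.93e-08) and 5.35-fold higher in CM than in NoRX (2.42 ± 0.13, adjusted p = 9.65e-08). Gstt3 was 3.98-fold higher in DIFF than in NoRX (1.99 ± 0.18, adjusted p = 4.62e-06) and 5.16-fold higher in CM than in NoRX (2.37 ± 0.16, adjusted p = 6.09e-07). With normexp background correction all 4 differences were smaller: 1.98 in DIFF and 1.69 in CM for Gstt1, and 1.19 in DIFF and 1.28 in CM for Gstt3. Between DIFF and CM neither passed, with 95% intervals of -0.10 to 0.53 for Gstt1 and -0.77 to 0.02 for Gstt3.

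The pi class genes Gstp1 and Gstp2 are near-identical copies and cannot be separated here. Gstp1 read 3.24 and 2.94 in DIFF, 4.04, 4.04 and 4.02 in CM and 2.84, 2.91 and 2.92 in NoRX. CM stood clear above the other groups, at 2.21-fold over NoRX (1.14 ± 0.08, adjusted p = 7.59e-07). DIFF was 1.92-fold lower than CM (-0.94 ± 0.09, adjusted p = 4e-06). Gstp2 gave differences of 0.95 for CM against NoRX and -0.92 for DIFF against CM.

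Members of the omega class also reduce dehydroascorbate. Gsto2 read 1.87 and 1.81 in DIFF, 4.08, 4.14 and 4.09 in CM and 3.91, 3.93 and 3.88 in NoRX. Both DIFF arrays lay far below all others, and this was the largest fall in DIFF against NoRX among the members measured in both groups, at 4.19-fold (-2.07 ± 0.07, adjusted p = 1.51e-09). Gsto2 was 4.80-fold lower in DIFF than in CM (-2.26 ± 0.07, adjusted p = 3.91e-10). Its rise in CM over NoRX was 1.15-fold (adjusted p = 0.0188) and was lost under 11 of the alternative settings. Gsto1 read 8.96 and 8.70 in DIFF, 8.75, 8.74 and 8.70 in CM and 9.12, 9.16 and 9.24 in NoRX, with NoRX above both media. It was 1.27-fold lower in DIFF than in NoRX (adjusted p = 0.00728, lost under 4 alternatives) and 1.36-fold lower in CM than in NoRX (-0.45 ± 0.08, adjusted p = 0.000556).

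The microsomal transferases sit in membranes and also act on lipid hydroperoxides or leukotrienes. Mgst1, whose promoter run is printed above, read 4.57 and 4.30 in DIFF, 5.63, 5.61 and 5.71 in CM and 4.32, 4.43 and 4.36 in NoRX. Mgst2 read 6.11 and 5.84 in DIFF, 7.02, 7.03 and 6.99 in CM and 6.48, 6.51 and 6.39 in NoRX. Mgst3 read 5.50 and 5.20 in DIFF, 6.44, 6.44 and 6.39 in CM and 6.10, 6.11 and 6.14 in NoRX. CM was highest for all 3 genes without overlap, and DIFF was lowest for Mgst2 and Mgst3. Against NoRX, CM was higher by 2.42-fold for Mgst1 (1.28 ± 0.08, adjusted p = 3.18e-07), 1.47-fold for Mgst2 (adjusted p = 0.000117) and 1.24-fold for Mgst3 (adjusted p = 0.00729, lost with slide row as a block and with normexp). DIFF was lower than CM by 2.32-fold, 2.06-fold and 2.11-fold in that order of genes (adjusted p = 4.71e-07, 1.3e-06 and 1.28e-06). Against NoRX, DIFF was 1.40-fold lower for Mgst2 (adjusted p = 0.000888, lost with slide row as a block) and 1.71-fold lower for Mgst3 (adjusted p = 3.47e-05).

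**Figure D2:**
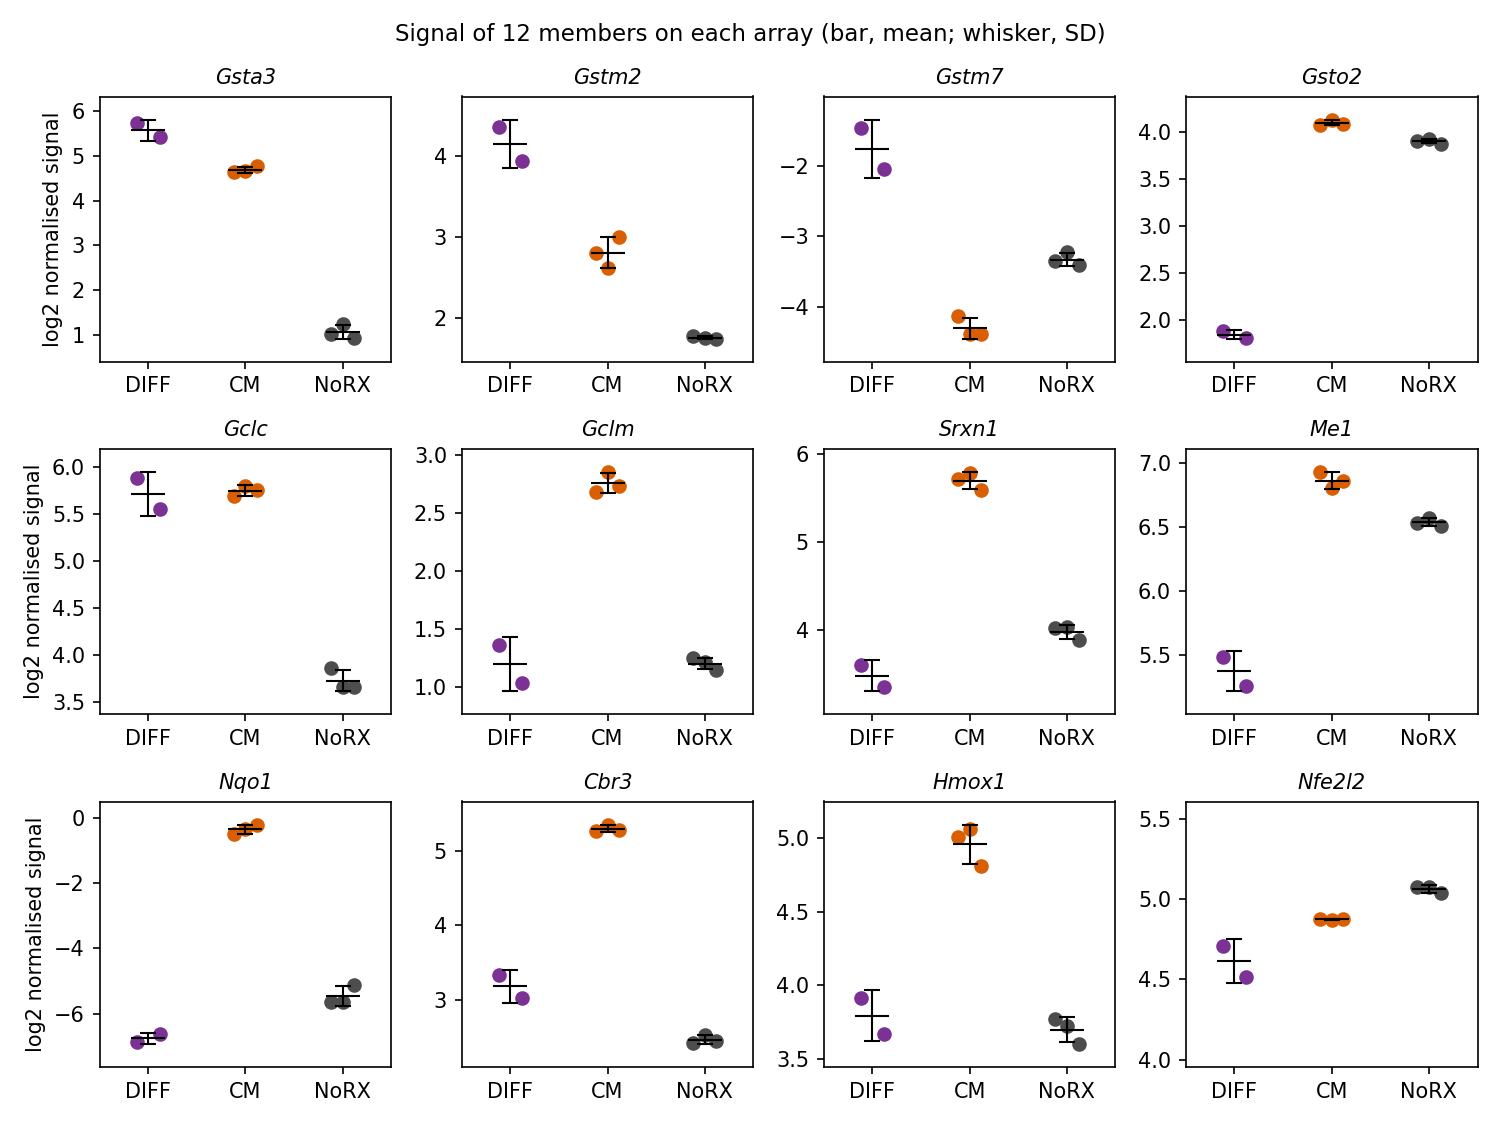
Log2 normalised signal of 12 members on each array, by group (DIFF, CM, NoRX); points are arrays, bars group means and whiskers SDs, and each panel has its own vertical axis. Nqo1, Cbr3, Srxn1, Gclm and Hmox1 are highest in CM, Gsta3 and Gclc are high in DIFF and CM, Gstm7 is high in DIFF, and Gsto2 and Me1 are low in DIFF.

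Glutathione synthesis and recycling held 6 members. In CM 5 were higher than in NoRX (83.3%) and 1 did not pass, beside 26.9% of all genes higher. In DIFF 2 were higher (33.3%), 1 lower (16.7%) and 3 did not pass, beside 14% and 28.1% of all genes. Gclc and Gclm encode the catalytic and the modifier subunit of glutamate-cysteine ligase, which makes the limiting step of glutathione synthesis, and they parted in DIFF. Gclc read 5.88 and 5.55 in DIFF, 5.70, 5.81 and 5.76 in CM and 3.86, 3.66 and 3.67 in NoRX. Gclm read 1.36 and 1.03 in DIFF, 2.68, 2.85 and 2.73 in CM and 1.24, 1.21 and 1.14 in NoRX. Gclc was high on every DIFF and CM array, whereas Gclm was high in CM alone and its DIFF arrays overlapped NoRX. Gclc was 3.97-fold higher in DIFF than in NoRX (1.99 ± 0.10, adjusted p = 5.28e-08) and 4.07-fold higher in CM than in NoRX (2.02 ± 0.09, adjusted p = 3.7e-08), and its difference between DIFF and CM had a 95% interval of -0.26 to 0.19. Gclm was 2.94-fold higher in CM than in NoRX (1.56 ± 0.09, adjusted p = 2.2e-07) and 2.96-fold lower in DIFF than in CM (-1.56 ± 0.10, adjusted p = 1.89e-07), with an interval of -0.23 to 0.22 for DIFF against NoRX. The spot of Gclc on DIFF replicate 2 lay in uneven background, and without it the difference from NoRX was 2.15.

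Gss encodes the enzyme that adds glycine in the last step. It read 2.63 and 2.25 in DIFF, 3.57, 3.54 and 3.44 in CM and 3.02, 3.11 and 3.00 in NoRX, so that CM was highest and DIFF lowest. It was 1.51-fold lower in DIFF than in NoRX (adjusted p = 0.000855, lost with slide row as a block), 1.39-fold higher in CM than in NoRX (adjusted p = 0.00141) and 2.11-fold lower in DIFF than in CM (-1.08 ± 0.11, adjusted p = 5.45e-06). Gsr, which reduces oxidised glutathione with NADPH, was 1.36-fold higher in CM than in NoRX (adjusted p = 0.000627) and 1.54-fold lower in DIFF than in CM (adjusted p = 7.86e-05). Ggt1 encodes a surface enzyme that cleaves glutathione outside the cell. It read -4.25 and -4.51 in DIFF, -2.54, -3.02 and -2.76 in CM and -3.89, -3.95 and -3.65 in NoRX, and 1 of the DIFF arrays was not well above background. It was 2.09-fold higher in CM than in NoRX (1.06 ± 0.20, adjusted p = 0.00109) and 3.04-fold lower in DIFF than in CM (-1.61 ± 0.23, adjusted p = 9.24e-05), and both calls were lost with normexp background correction.

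Slc7a11, the cystine importer that feeds the pathway with cysteine, read -1.09 and 3.21 in DIFF, 0.11, 0.36 and 0.31 in CM and -1.43, -1.53 and -1.31 in NoRX. CM lay above NoRX without overlap, and the DIFF arrays lay on either side of CM. As fitted, DIFF was higher than NoRX (2.49 ± 0.85, adjusted p = 0.0364) and CM did not differ past the threshold (1.68 ± 0.76, adjusted p = 0.0865). Its spot on DIFF replicate 2 lay in uneven background. Without DIFF replicate 1, DIFF against NoRX gave 4.64. With that spot left out instead, it gave 0.33 (adjusted p = 0.0756), CM against NoRX 1.68 (adjusted p = 2.62e-09) and DIFF against CM -1.35 (adjusted p = 8.36e-07). Of the 50 tested members 4 had such a spot on DIFF replicate 2, and Slc7a11 and Gsta2 showed the widest gaps between the DIFF arrays. Among the other 48, DIFF replicate 1 lay above replicate 2 in 46, by a median of 0.26.

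**Figure D3:**
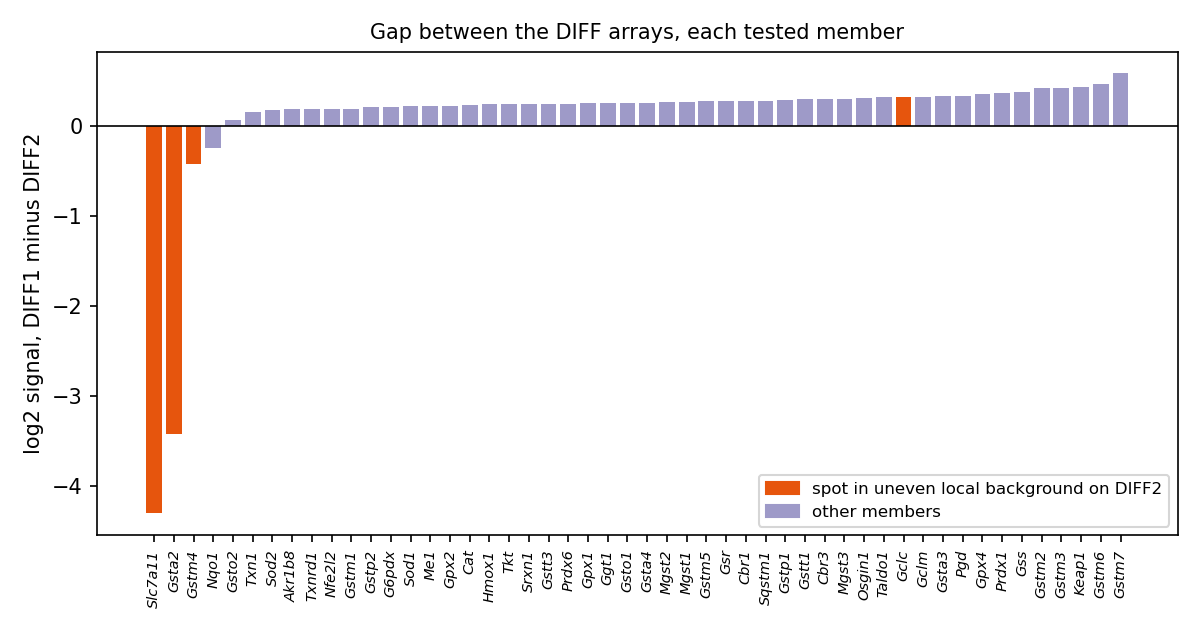
Log2 signal on DIFF replicate 1 minus that on DIFF replicate 2 for each of the 50 tested members, with the 4 whose spot lay in uneven local background on replicate 2 in orange. Slc7a11 and Gsta2 fall far below the others, which lie between -0.42 and 0.59.

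In peroxide and superoxide removal 11 members were tested. In CM 5 of them were higher than in NoRX (45.5%), 1 was lower (9.09%) and 5 did not pass, beside 26.9% and 25.3% of all genes. In DIFF 4 were higher (36.4%) and 6 lower (54.5%) than in NoRX, beside 14% and 28.1% of all genes. Srxn1, Gpx2 and Txnrd1 had the largest differences between CM and NoRX. Srxn1 encodes sulfiredoxin, which restores over-oxidised peroxiredoxins. It read 3.60 and 3.35 in DIFF, 5.71, 5.78 and 5.59 in CM and 4.02, 4.03 and 3.89 in NoRX, with CM highest and DIFF lowest. It was 3.28-fold higher in CM than in NoRX (1.71 ± 0.08, adjusted p = 6.17e-08), 4.65-fold lower in DIFF than in CM (-2.22 ± 0.09, adjusted p = 5.72e-09) and 1.42-fold lower in DIFF than in NoRX (adjusted p = 0.00133, lost under 3 alternatives). Txnrd1, which reduces thioredoxin, was 1.97-fold higher in CM than in NoRX (0.98 ± 0.07, adjusted p = 8.76e-07) and 1.68-fold lower in DIFF than in CM (-0.75 ± 0.08, adjusted p = 9.03e-06). It was 1.17-fold higher in DIFF than in NoRX (adjusted p = 0.0329), a call lost under 12 alternatives.

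Gpx2, a glutathione peroxidase typical of gut epithelium, read -3.56 and -3.78 in DIFF, -1.97, -2.19 and -1.95 in CM and -3.32, -3.34 and -3.21 in NoRX. Only the CM arrays were raised: it was 2.38-fold higher in CM than in NoRX (1.25 ± 0.15, adjusted p = 3.93e-05) and 3.10-fold lower in DIFF than in CM (-1.63 ± 0.17, adjusted p = 7.48e-06; -0.56 with normexp background correction). Prdx6, a peroxiredoxin that uses glutathione, ran the opposite way to most of the role. It read 7.05 and 6.80 in DIFF, 6.15, 6.12 and 6.14 in CM and 6.52, 6.55 and 6.50 in NoRX. It was 1.32-fold higher in DIFF than in NoRX (adjusted p = 0.00206, lost under 3 alternatives), 1.31-fold lower in CM than in NoRX (-0.39 ± 0.07, adjusted p = 0.001) and 1.73-fold higher in DIFF than in CM (0.79 ± 0.08, adjusted p = 7.95e-06). Of its 4 kept probes, 3 gave negative differences between CM and NoRX and the dimmest, well above background on 2 arrays, gave 0.43; the call was lost with the mean of all 4.

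Of the glutathione peroxidases, Gpx1 read 6.29 and 6.03 in DIFF, 5.76, 5.82 and 5.73 in CM and 5.57, 5.69 and 5.65 in NoRX. It was 1.44-fold higher in DIFF than in NoRX (adjusted p = 0.000514) and 1.31-fold higher in DIFF than in CM (adjusted p = 0.00236, lost under 2 alternatives). Gpx4, which reduces lipid hydroperoxides in membranes, was 1.34-fold lower in DIFF than in NoRX (adjusted p = 0.00449, lost under 2 alternatives). Sod1, the cytosolic superoxide dismutase, read 7.70 and 7.48 in DIFF, 8.55, 8.55 and 8.51 in CM and 8.29, 8.31 and 8.30 in NoRX. It was 1.64-fold lower in DIFF than in NoRX (-0.71 ± 0.08, adjusted p = 2.3e-05) and 1.93-fold lower in DIFF than in CM (adjusted p = 1.25e-06). Sod1 was 1.18-fold higher in CM than in NoRX (adjusted p = 0.0147, lost under 8 alternatives). Sod2, its mitochondrial counterpart, read 5.76 and 5.57 in DIFF, 5.66, 5.63 and 5.65 in CM and 5.45, 5.44 and 5.43 in NoRX. Its differences from NoRX of 0.23 in DIFF and 0.21 in CM passed (adjusted p = 0.0293 and 0.0202) and were lost under 11 and 10 alternatives. Cat, Prdx1 and Txn1 did not pass between CM and NoRX and were lower in DIFF than in NoRX, by 1.45-fold, 1.35-fold and 1.23-fold (adjusted p = 0.000335, 0.00585 and 0.00702). Prdx1 and Txn1 lost that call under some alternatives, median centring and slide row as a block among them.

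NADPH supply held 5 members, of which 3 (60%) were higher in CM than in NoRX by at most 0.47 and 2 did not pass. The share of all genes higher in CM was 26.9%. In DIFF 1 was higher than in NoRX (20%) and 3 were lower (60%), beside 14% and 28.1% of all genes. G6pdx, the first enzyme of the pentose phosphate pathway, read 3.05 and 2.83 in DIFF, 2.28, 2.29 and 2.38 in CM and 1.87, 1.77 and 1.91 in NoRX. The groups did not overlap and DIFF was highest. It was 2.13-fold higher in DIFF than in NoRX (1.09 ± 0.09, adjusted p = 1.61e-06), 1.38-fold higher in CM than in NoRX (adjusted p = 0.000423) and 1.54-fold higher in DIFF than in CM (adjusted p = 8.81e-05). Me1, the cytosolic malic enzyme, read 5.48 and 5.26 in DIFF, 6.93, 6.80 and 6.85 in CM and 6.53, 6.57 and 6.51 in NoRX. DIFF was lowest on both arrays: Me1 was 2.24-fold lower in DIFF than in NoRX (-1.17 ± 0.08, adjusted p = 5.8e-07) and 2.81-fold lower in DIFF than in CM (-1.49 ± 0.08, adjusted p = 4.76e-08). It was 1.25-fold higher in CM than in NoRX (adjusted p = 0.0034, lost with normexp background correction). Pgd, the next oxidative step after G6pdx, was 1.43-fold lower in DIFF than in NoRX (adjusted p = 0.00118, lost with slide row as a block) and read -0.06 ± 0.08 between CM and NoRX. Taldo1, of the non-oxidative branch, was 1.32-fold higher in CM than in NoRX (adjusted p = 0.00241, lost with slide row as a block). The differences of Tkt from DIFF to the other groups, 1.18-fold lower than NoRX and 1.17-fold lower than CM, were lost under 16 and 17 alternatives.

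All 5 quinone, carbonyl and haem enzymes were at least 2-fold higher in CM than in NoRX, beside 6.21% of all genes. All 5 were at least 2-fold lower in DIFF than in CM, beside 12.3% of all genes. Nqo1 encodes a quinone reductase that is a standard readout of NRF2 activity. It read -6.88 and -6.63 in DIFF, -0.49, -0.33 and -0.21 in CM and -5.66, -5.64 and -5.11 in NoRX. It was well above background on all 3 CM arrays and on none of the others, so only bounds can be given. It was at least 28.7-fold higher in CM than in NoRX and at least 23.5-fold lower in DIFF than in CM. The limma fit on the measured signals gave adjusted p = 3.33e-08 and 3.24e-09, which do not test the bounds. Nqo1 passed the filter for testing through the CM arrays alone. For these bounds the dim arrays were raised, where they lay below it, to the dimmest signal that any probe well above background had on the same array. The bounds hold for the scanner's own background subtraction: with normexp the log2 differences were 2.93 for CM against NoRX and -2.57 for DIFF against CM, smaller than the bounds (adjusted p = 3.57e-07 and 1.41e-06). Between DIFF and NoRX both sides were below background and no fold is given, although the fit counts Nqo1 among the lower members there.

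The carbonyl reductases Cbr1 and Cbr3 reduce reactive carbonyls and quinones. Cbr3 read 3.34 and 3.03 in DIFF, 5.26, 5.35 and 5.28 in CM and 2.42, 2.53 and 2.46 in NoRX. Cbr1 read 4.03 and 3.76 in DIFF, 6.44, 6.49 and 6.38 in CM and 4.51, 4.63 and 4.65 in NoRX. CM was highest for both, with DIFF above NoRX for Cbr3 and below it for Cbr1. Cbr3 was 7.10-fold higher in CM than in NoRX (2.83 ± 0.08, adjusted p = 2.73e-09), 1.64-fold higher in DIFF than in NoRX (0.71 ± 0.09, adjusted p = 9.19e-05) and 4.33-fold lower in DIFF than in CM (-2.11 ± 0.09, adjusted p = 7.54e-09). Cbr1 was 3.59-fold higher in CM than in NoRX (1.84 ± 0.08, adjusted p = 3.38e-08), 1.62-fold lower in DIFF than in NoRX (-0.70 ± 0.09, adjusted p = 0.000101) and 5.83-fold lower in DIFF than in CM (-2.54 ± 0.09, adjusted p = 1.59e-09).

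Akr1b8, an aldo-keto reductase, read 4.66 and 4.47 in DIFF, 6.35, 6.39 and 6.40 in CM and 5.34, 5.33 and 5.25 in NoRX. Hmox1, which opens haem to biliverdin, read 3.91 and 3.67 in DIFF, 5.01, 5.06 and 4.81 in CM and 3.77, 3.72 and 3.60 in NoRX. For both the CM arrays were highest, and the DIFF arrays were lowest for Akr1b8 and overlapped NoRX for Hmox1. Akr1b8 was 2.10-fold higher in CM than in NoRX (1.07 ± 0.07, adjusted p = 4.14e-07), 1.67-fold lower in DIFF than in NoRX (-0.74 ± 0.08, adjusted p = 1.49e-05) and 3.51-fold lower in DIFF than in CM (-1.81 ± 0.08, adjusted p = 5.38e-09). Hmox1 was 2.40-fold higher in CM than in NoRX (1.26 ± 0.09, adjusted p = 9.67e-07) and 2.25-fold lower in DIFF than in CM (-1.17 ± 0.10, adjusted p = 2.02e-06).

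The mRNA of NRF2 itself did not rise. Nfe2l2 read 4.71 and 4.52 in DIFF, 4.88, 4.87 and 4.88 in CM and 5.07, 5.08 and 5.04 in NoRX. NoRX was highest and DIFF lowest without overlap. It was 1.36-fold lower in DIFF than in NoRX (-0.45 ± 0.07, adjusted p = 0.000576, lost under 2 alternatives). It was 1.14-fold lower in CM than in NoRX (-0.19 ± 0.07, adjusted p = 0.0356), a call lost under 11 alternatives, and 1.20-fold lower in DIFF than in CM (adjusted p = 0.011, lost under 4). Keap1 read 3.17 and 2.74 in DIFF, 3.33, 3.29 and 3.18 in CM and 3.53, 3.48 and 3.46 in NoRX. It was 1.45-fold lower in DIFF than in NoRX (-0.53 ± 0.11, adjusted p = 0.00286, lost with slide row as a block at -0.44 and adjusted p = 0.165) and did not pass between CM and NoRX (-0.22 ± 0.10, adjusted p = 0.0882). RNA levels do not show how much of the proteins was present or active.

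Osgin1, a stress-induced growth inhibitor, read 3.88 and 3.57 in DIFF, 5.15, 5.15 and 4.99 in CM and 3.91, 3.81 and 3.90 in NoRX. The CM arrays stood above all others, at 2.34-fold over NoRX (1.23 ± 0.09, adjusted p = 9.67e-07), and DIFF was 2.60-fold lower than CM (-1.38 ± 0.10, adjusted p = 4.1e-07). Sqstm1, the autophagy adaptor p62 that binds KEAP1, was 1.29-fold higher in CM than in NoRX (adjusted p = 0.00402) and 1.31-fold lower in DIFF than in CM (adjusted p = 0.0052). The last call was lost with median centring (adjusted p = 0.161), within row 2 of the slide (adjusted p = 0.0813) and with array weights (adjusted p = 0.0855).

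**Figure D4:**
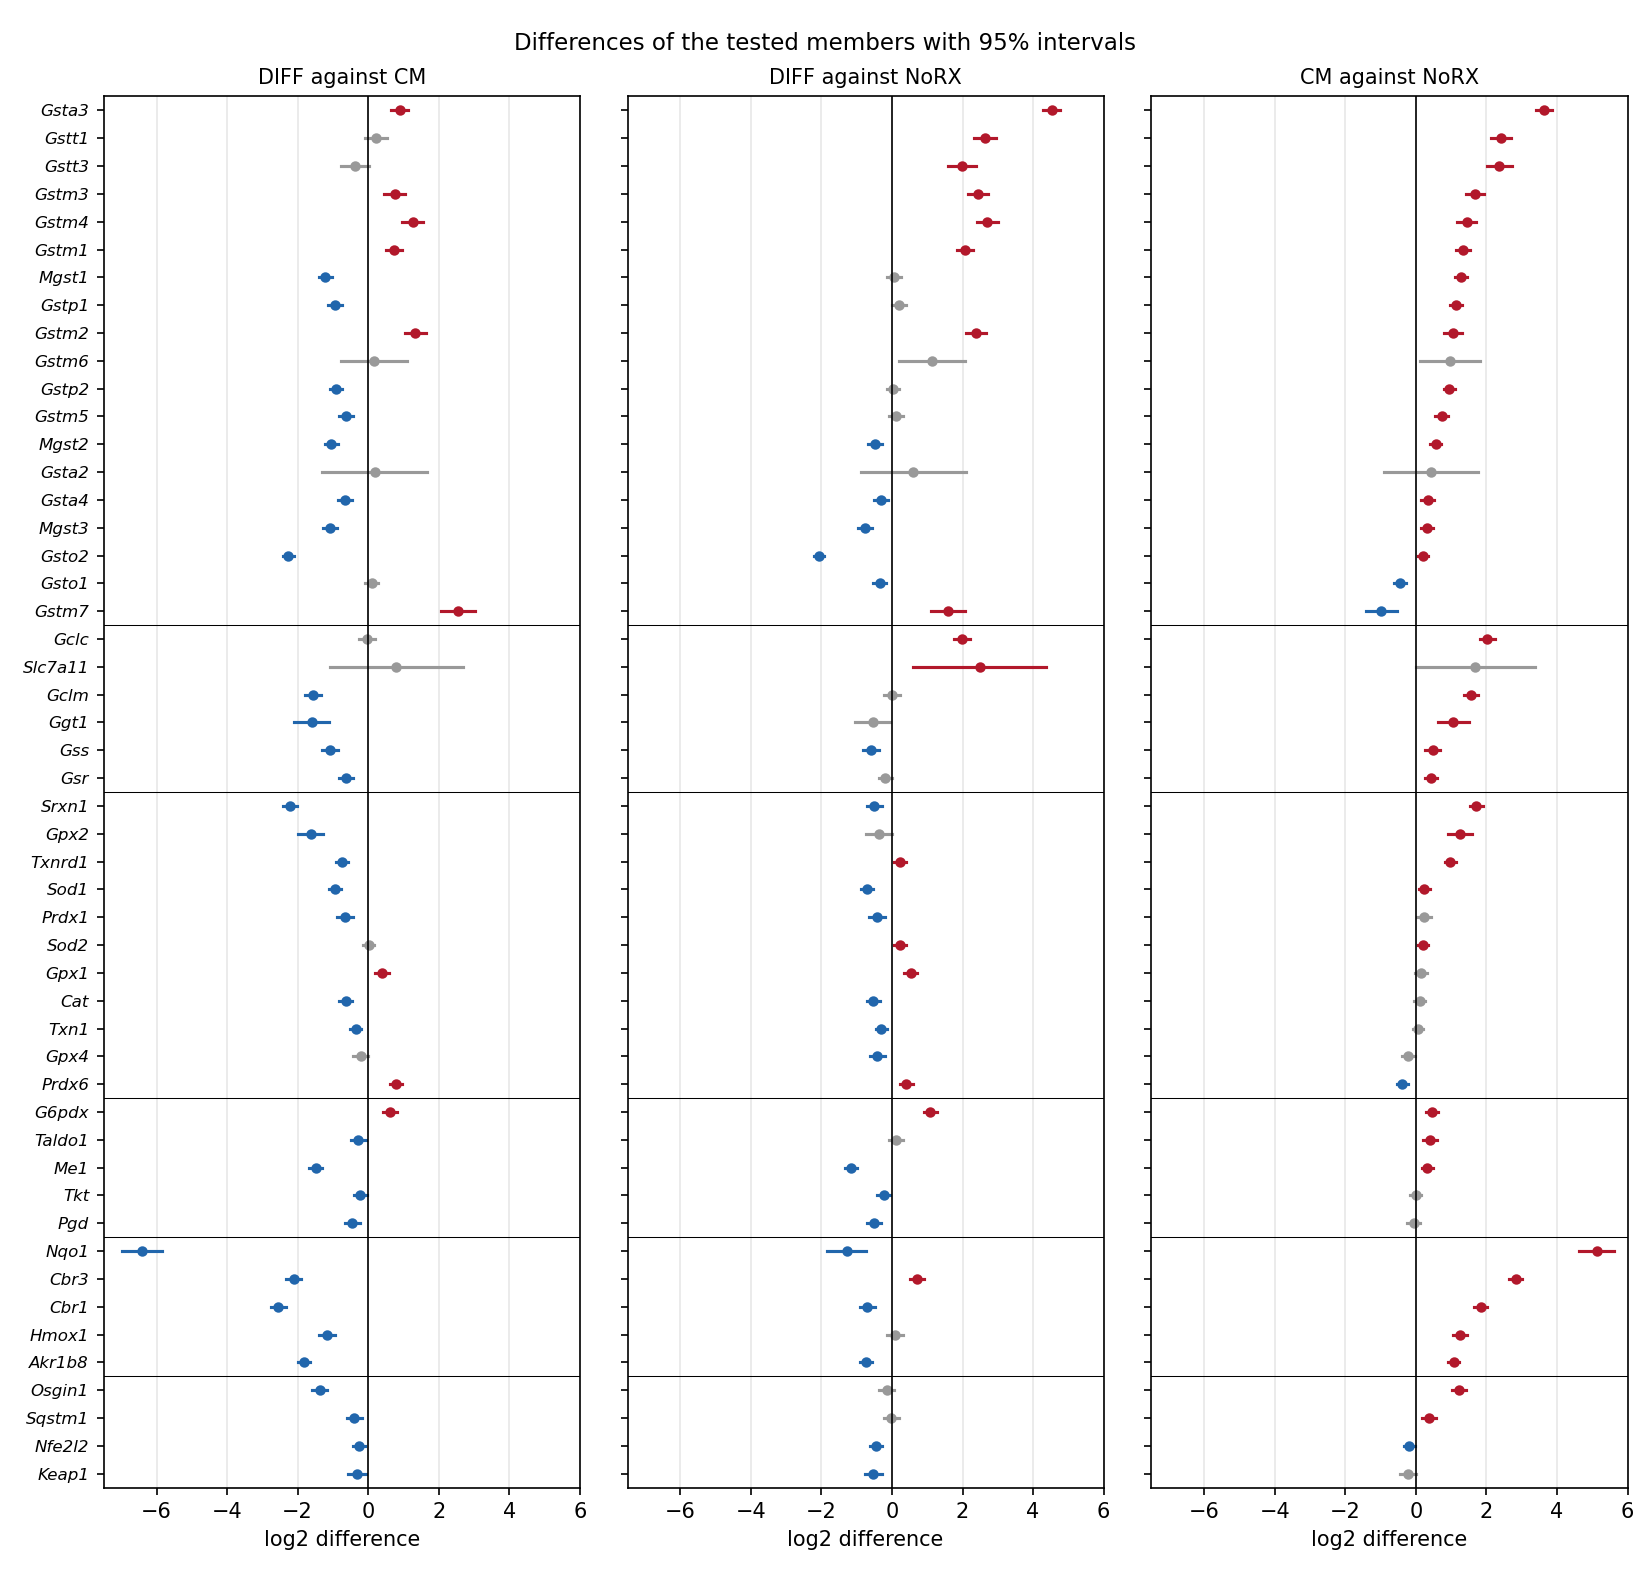
Log2 differences of the 50 tested members with 95% intervals for DIFF against CM, DIFF against NoRX and CM against NoRX, grouped by role; red passed as higher, blue as lower, and grey did not pass. The right panel lies mostly right of 0 and the left panel mostly left of 0, where the members called higher are Gsta3, Gstm1 to Gstm4, Gstm7, Gpx1, Prdx6 and G6pdx. The wide intervals of Gsta2 and Slc7a11 come with the gap between their DIFF arrays, and the points of Nqo1 are measured signals, not bounds.

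A further 90 genes of the same pathways were listed, of which 87 had a probe and 80 were tested. In CM 30 were higher than in NoRX (37.5%) and 22 lower (27.5%), beside 26.9% and 25.3% of all genes, with a median difference of 0.12. In DIFF 24 were higher and 27 lower than in NoRX, beside 14% and 28.1% of all genes. Between DIFF and CM, 23 were higher and 31 lower in DIFF, beside 23.6% and 35.6% of all genes. Of the other glutathione enzymes, 11 of 23 tested were higher in CM than in NoRX (47.8%) and 4 lower (17.4%), and of the other NRF2 targets and partners 10 of 27 were higher (37.0%) and 5 lower (18.5%). Among the other thioredoxin and peroxide genes 5 of 17 were higher (29.4%) and 8 lower (47.1%), and among the other NADPH genes 4 of 13 were higher (30.8%) and 5 lower (38.5%), so that the shares higher in both were near the 26.9% of all genes.

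Of these genes, Abcc2, the canalicular pump that exports glutathione conjugates, read -4.67 and -5.43 in DIFF, -2.67, -2.65 and -2.48 in CM and -7.11, -6.55 and -6.89 in NoRX. It was well above background on 1 DIFF array, all 3 CM arrays and 0 NoRX arrays, and passed the filter for testing only with the CM arrays. Abcc2 was at least 6.35-fold higher in CM than in NoRX. The limma fit on the measured signals gave adjusted p = 1.46e-06, which does not test the bound. On the measured signals Abcc2 was 5.46-fold lower in DIFF than in CM, with 1 DIFF array well above background. The limma fit gave adjusted p = 0.000136, which is not independent of a filter passed only with the CM arrays. Ggt7, a relative of Ggt1, was 5.0-fold higher in DIFF than in NoRX (adjusted p = 0.00012) and 15.5-fold higher in CM than in NoRX (3.96 ± 0.28, adjusted p = 8.67e-07). Ptgr1, a reductase of reactive alkenals, was 4.40-fold higher in CM than in NoRX (2.14 ± 0.10, adjusted p = 3.38e-08), 2.08-fold lower in DIFF than in NoRX (adjusted p = 1.27e-05) and 9.16-fold lower in DIFF than in CM (adjusted p = 8.89e-10). The inhibitor of thioredoxin, Txnip, read 1.86 and 1.52 in DIFF, 6.16, 6.30 and 6.15 in CM and -2.52, -2.56 and -3.02 in NoRX. The 3 groups stood far apart, and DIFF was 21.0-fold above NoRX (4.39 ± 0.15, adjusted p = 1.87e-09) and 22.8-fold below CM (-4.51 ± 0.15, adjusted p = 7.64e-10).

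The metallothionein Mt2, which binds zinc and copper, read 7.94 and 7.64 in DIFF, 4.30, 4.02 and 4.11 in CM and 7.04, 6.92 and 6.98 in NoRX. It ran opposite to most members, 7.12-fold lower in CM than in NoRX (-2.83 ± 0.09, adjusted p = 5.2e-09) and 12.6-fold higher in DIFF than in CM (3.65 ± 0.11, adjusted p = 3.12e-10). Chac1, which degrades glutathione, was 2.16-fold lower in CM than in NoRX (adjusted p = 1.82e-06). The other NADPH genes split in DIFF. H6pd, the hexose-6-phosphate dehydrogenase of the endoplasmic reticulum, was 4.62-fold higher in DIFF than in NoRX (2.21 ± 0.10, adjusted p = 1.27e-08), and the folate enzyme Aldh1l1 was 4.35-fold higher (adjusted p = 6.71e-08). The mitochondrial malic enzymes Me3 and Me2 were 3.35-fold and 2.11-fold lower in DIFF than in NoRX (adjusted p = 7.07e-06 and 2.57e-06), and Me2 was also 2.11-fold lower in CM than in NoRX (adjusted p = 1.29e-06). The mitochondrial folate enzyme Aldh1l2 was 2.43-fold lower in CM than in NoRX (adjusted p = 4.79e-07), and Pir, an NRF2 target, was 3.44-fold lower in DIFF than in NoRX (adjusted p = 5.3e-08). Between DIFF and CM, H6pd was 4.73-fold higher in DIFF (adjusted p = 5.88e-09) and Me3 4.36-fold lower (adjusted p = 8.07e-07). Sod3 and Gpx8 were also called higher in DIFF than in CM, by 5.16-fold and 4.13-fold (adjusted p = 0.0235 and 0.00337), with 2 and 1 of the 3 CM arrays well above background.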

How the data were processed

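The authors deposited scanner intensities of 8 one-colour arrays (Cy3). Per the submitters' processing notes and the file headers, Agilent Feature Extraction 11.0.1.1 made them, subtracting background without scaling between arrays. The deposited series table holds the same intensities. From them, log2 signal minus each array's 75th percentile was computed, without control spots and outlier flags. Of 55681 probes, 27235 matched a RefSeq accession (GRCm38.p6 table). The array design is older, so genes carry no array coordinates. Per gene the probe with the highest mean was used if well above background on at least 2 arrays. One fit over all arrays used limma 3.58.1 in R 4.3.3 (lmFit, eBayes with trend); 30 values were missing. Functions were tested on simulated data, where the fit with 1 spread for all groups also called unchanged genes in the DIFF comparisons. For the normexp alternative (offset 50) the median signal was used, since the files give no mean signal. DIFF arrays carry replicate numbers 1 and 2 in 1 label and the number 1 for both in another.

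Members, roles, pathway lists and markers were chosen with earlier results of these data known. By rule, members at least 2-fold changed, with bounds, or against their role have values per array; pathway genes are up to 4 with the largest called, non-overlapping differences per comparison and direction.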

Additional observations from a re-analysis of the deposited data

How the results depend on the processing

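The number of arrays limits precision, most of all in DIFF with n = 2, and dim probes carry wider error. Genes changed fell to 4796 (CM against NoRX) and 2802 (DIFF against NoRX) with slide row as a block, against 7328 and 5908 without it, and to 2988 (DIFF against NoRX) and 5315 (DIFF against CM) with array weights, against 8305 for the last without them. Members lower were 7, not 4, in CM against NoRX when the 75th percentile was taken over probes above background on all arrays. Members lower in DIFF against NoRX were 12 with median centring and 8 with slide row as a block, not 20; the cause was not tested. Leaving out 1 array at a time gave 6109 to 9309, 4729 to 8487 and 7342 to 9788 genes changed for CM against NoRX, DIFF against NoRX and DIFF against CM. Members higher then ranged over 32 to 41, 13 to 21 and 9 to 12, and members lower over 3 to 6, 18 to 24 and 29 to 33. The directions of Gsta2 (-1.10 against NoRX and -1.53 against CM) and Slc7a11 (-1.35 against CM) in DIFF turned with uneven-background spots left out and, at the same values, without DIFF replicate 2; without replicate 1 they were 2.32, 1.89 and 2.95. That of Nqo1 in DIFF against NoRX turned with normexp (0.36) and that of Gstm3 in DIFF against CM with the mean of its probes (-0.29). Deviations of same-numbered arrays from their group means had correlations of -0.06 to 0.01 for CM with NoRX and -0.02 for DIFF with NoRX. For DIFF with CM they were 0.09 and 0.17. The main fit did not pair the arrays, and with so few arrays these values cannot exclude a pairing. With a replicate block 35 members were higher and 3 lower in CM against NoRX, 14 and 19 in DIFF against NoRX and 9 and 30 in DIFF against CM.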

Other observations

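Within each array, the log2 ratio of Gclm to Gclc, set to a mean of 0 in NoRX, was -2.0 and -2.0 in DIFF, -0.49, -0.43 and -0.50 in CM and -0.09, 0.08 and 0.01 in NoRX. This ratio does not depend on the scaling between arrays. The RNA signal of the modifier subunit was thus lower relative to that of the catalytic one on every DIFF and CM array than on any NoRX array. The differences were -2.0 in DIFF and -0.47 in CM. The spot of Gclc on DIFF replicate 2 lay in uneven background, and without it the DIFF ratio rests on replicate 1 alone. Two-sided exact permutation tests gave p = 0.2 for DIFF against NoRX and p = 0.1 for CM against NoRX, which are the smallest p-values these numbers of arrays allow, so that neither could pass 0.05.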
